A study of Mus musculus with 6 samples.

Results

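The genes described here are 8 matrix metalloproteinase genes of the cluster near the start of chromosome 9 (Mmp13, Mmp12, Mmp3, Mmp10, Mmp8, Mmp27, Mmp20 and Mmp7), Mmp16 on chromosome 4, and Reck, a metalloproteinase inhibitor on chromosome 4. They are 10 of the 55359 rows of the count table, taken by Ensembl identifier. RNA was sequenced in 3 libraries each of UN-SCC679 and UN-SCC680, mouse lung squamous cell carcinoma (LUSC) lines grown from lung tumors that the carcinogen NTCU, painted on the skin, had induced in A/J mice. Each line comes from a tumor of a different mouse, was immortalized in culture, and was passed through immunodeficient mice (Rag2-/- IL2Rg-/-) and then through A/J mice. Both are adherent, fusiform cells in which the study saw the squamous phenotype recede, and each line stands for a single tumor. Nothing states that the libraries of a line came from separate cultures, so p-values measure the spread between these libraries, which may be technical.

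The libraries held 3568293 to 4363229 counts for UN-SCC679 and 4242716 to 4381885 for UN-SCC680. Gene positions in the table are mostly not those of GRCm38 (mm10), the build named for the reads, and a row at a moved position cannot be read as the gene it names. The 10 genes lie where both agree, in windows at the low-numbered ends of chromosomes 9 and 4. The cluster spans 427 kb, from Mmp13 (7272514 to 7283331) through Mmp12, Mmp3, Mmp10, Mmp8, Mmp27 and Mmp20 to Mmp7 (7692091 to 7699586), all on the + strand, and each row counts reads over the exons of a gene. Of the rows placed by symbol in these windows, 33 of 35 on chromosome 9 and 418 of 440 on chromosome 4 matched GRCm38 to 1000 bases at either end, against 2 of 1110 and 21 of 1202 on the rest of these chromosomes. Of the 7 squamous or basal epithelial markers listed, such as Krt5 and Trp63, 0 lie at an agreeing position, so the labelled cell type could not be checked here.

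Matrix metalloproteinases (MMPs) are zinc enzymes that cut collagens, proteoglycans and other proteins of the extracellular matrix. Most are made as inactive, secreted proenzymes. Stromelysins (Mmp3, Mmp10) cut many matrix proteins and activate other MMPs, collagenases (Mmp8, Mmp13) cut fibrillar collagen, matrilysin (Mmp7) is typical of epithelium and macrophage elastase (Mmp12) of macrophages. Mmp20 acts in tooth enamel, Mmp16 is anchored in the cell membrane, and little is known of Mmp27. Reck is a membrane-anchored glycoprotein that restrains several MMPs and also takes part in Wnt7 signalling. Promoters of inducible MMP genes often hold a TATA box and a site for AP-1, the Fos and Jun transcription factors, close to the start.

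The 150 bases before the RefSeq gene start (GRCm38.p6, + strand) are shown for Mmp10, Mmp27 and Reck, the genes detected in a line. Those of Mmp3, Mmp13 and Mmp7, relatives of Mmp10 with the same pair of motifs, are shown as well. Capitals mark AP-1 matches (TGACTCA or TGAGTCA, which cover both strands) and TATA boxes (TATAAA, on the strand of the gene). The windows are chr9:7502192-7502341 for Mmp10, chr9:7571246-7571395 for Mmp27, chr9:7445672-7445821 for Mmp3, chr9:7272364-7272513 for Mmp13, chr9:7691940-7692089 for Mmp7 and chr4:43875380-43875529 for Reck. For Reck the start is that of its promoter entry, 43875530, while the RefSeq gene position used to judge agreement begins at 43875521.
Mmp10: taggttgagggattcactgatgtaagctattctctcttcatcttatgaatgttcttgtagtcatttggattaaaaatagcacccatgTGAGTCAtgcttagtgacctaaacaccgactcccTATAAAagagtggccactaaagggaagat
Mmp3: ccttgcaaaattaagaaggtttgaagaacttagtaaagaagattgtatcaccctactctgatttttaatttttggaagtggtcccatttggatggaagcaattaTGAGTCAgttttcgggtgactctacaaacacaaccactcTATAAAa
Mmp13: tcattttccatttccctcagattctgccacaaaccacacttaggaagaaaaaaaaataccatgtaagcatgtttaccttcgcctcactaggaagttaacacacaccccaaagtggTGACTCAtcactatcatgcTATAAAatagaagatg
Mmp7: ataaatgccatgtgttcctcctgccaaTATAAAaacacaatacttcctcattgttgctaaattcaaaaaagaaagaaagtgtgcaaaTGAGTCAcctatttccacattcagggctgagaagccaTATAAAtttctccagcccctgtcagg
Mmp27: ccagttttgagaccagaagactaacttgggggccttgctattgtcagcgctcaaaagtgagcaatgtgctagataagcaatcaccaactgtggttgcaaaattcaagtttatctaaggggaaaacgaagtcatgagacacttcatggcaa
Reck: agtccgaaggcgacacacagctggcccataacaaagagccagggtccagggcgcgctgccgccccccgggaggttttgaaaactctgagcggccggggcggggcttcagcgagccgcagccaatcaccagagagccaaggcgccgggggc

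Of the 8 cluster genes, 4 (Mmp3, Mmp7, Mmp10 and Mmp13) held an AP-1 match in the 250 bases before the start of their first promoter entry, against 4.5% of 32851 promoter entries of RefSeq, and 5 held a TATA box, against 7.6%. A second entry of Mmp12, from a later start, also held an AP-1 match, 44 bases before that start, so 5 of the 8 genes had one in any entry. Genes of a cluster that arose by duplication share ancestry, so these are not independent promoters. In Mmp10 the AP-1 match began 63 bases and the TATA box 29 bases before the start. PEA3 matches (AGGAAG on either strand, bound by Ets factors) stood before 5 of the 8 genes, against 29.5% of all entries. Mmp27 and Reck held 0 matches to the 3 motifs in this window. The Reck window was also richer in G and C, with 68.7% of its 150 bases against 39.3% for Mmp10 and 43.3% for Mmp27. Mmp16 has no entry in the promoter table used. A match is a description of the letters, and binding was not measured.

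**Figure D1:**
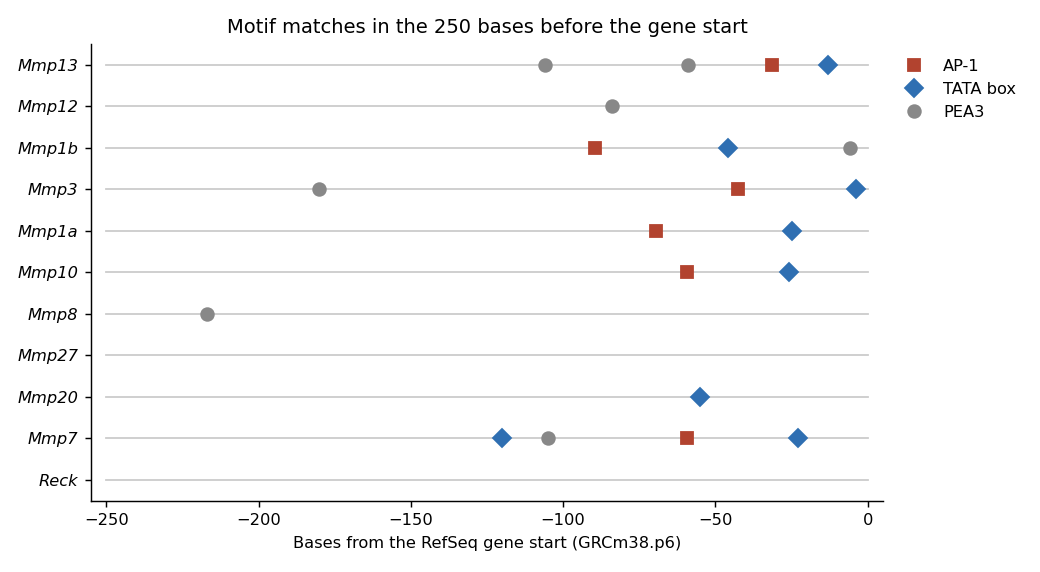
Position of AP-1, TATA box and PEA3 matches (horizontal axis, bases from the RefSeq gene start) in the 250 bases before the start in the first promoter entry of the 8 cluster genes, of their neighbors Mmp1a and Mmp1b, and of Reck; 1 line per gene. The line of Mmp10 carries an AP-1 match 63 bases and a TATA box 29 bases before the start, and the lines of Mmp27 and Reck are empty.

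Most of these genes gave few or no counts in either line. A gene was called detected in a line when each of its 3 libraries had more than 3 counts, a floor that corresponds to 0.688 to 0.841 counts-per-million (CPM) units in a UN-SCC679 library and 0.685 to 0.707 CPM in a UN-SCC680 library. By this limit 3 of the 10 genes were detected in UN-SCC679 (Mmp10, Mmp27 and Reck) and 1 in UN-SCC680 (Reck). Mmp8, Mmp7 and Mmp16 were at 0 in each of the 6 libraries and were therefore under that floor, which is not evidence of absence. The remaining 4 genes (Mmp13, Mmp12, Mmp3 and Mmp20) had at most 8 counts in any library.

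**Figure D2:**
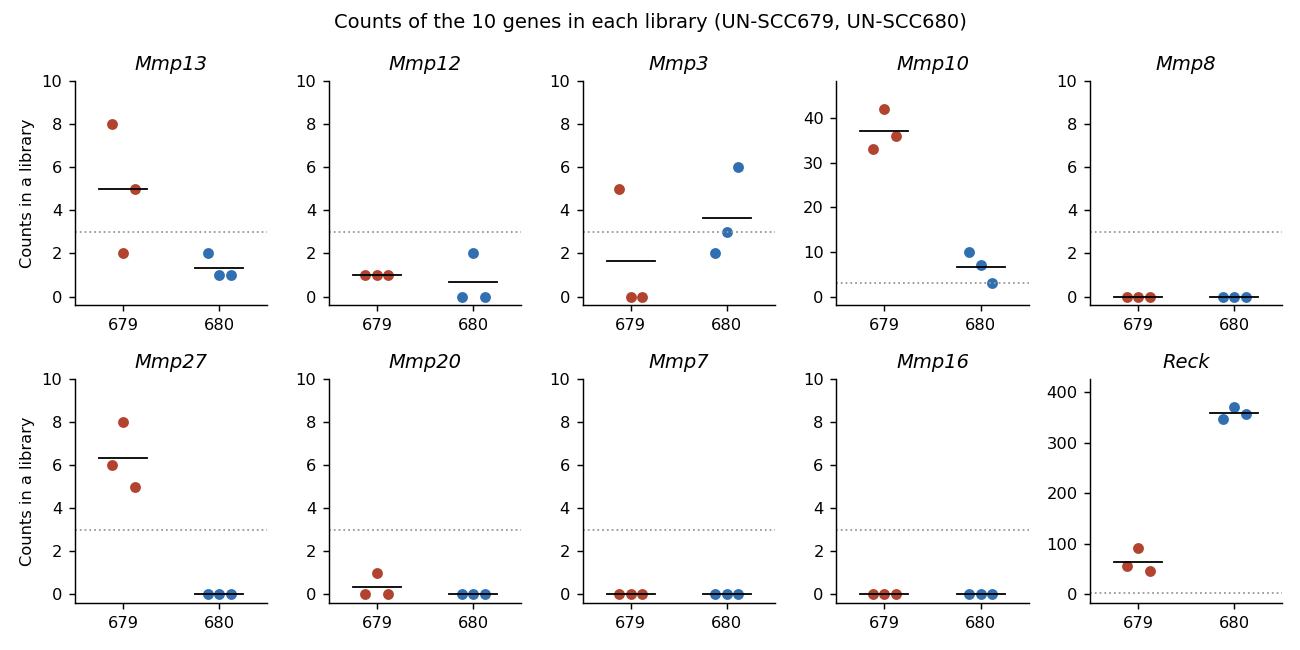
Counts (vertical axis, linear, its own scale in each panel) of the 10 genes in the 3 libraries of UN-SCC679 (red) and the 3 of UN-SCC680 (blue); points are libraries, black lines are means and the dotted line is the floor of 3 counts. Mmp10 and Mmp27 lie higher in UN-SCC679 and Reck higher in UN-SCC680, without overlap, and Mmp8, Mmp7 and Mmp16 lie at 0 throughout. The share of rows without overlap in the whole series was not counted.

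Mmp10 (stromelysin-2, ENSMUSG00000047562.4, chromosome 9, 7502353 to 7510241) had the highest mean level of the cluster genes in both lines. It had 33, 42 and 36 counts in the UN-SCC679 libraries and 10, 7 and 3 in the UN-SCC680 libraries. Every UN-SCC679 library lay above every UN-SCC680 library, but the share of all rows separated in this way was not counted. Normalized CPM (counts over the library total and the TMM factor) averaged 9.45 ± 0.593 for UN-SCC679 and 1.56 ± 0.833 for UN-SCC680 (SD, n = 3). The log2 fold change was -2.58 (standard error 0.30), or 5.96-fold lower in UN-SCC680. The difference passed the threshold, an adjusted p-value of 5e-05, with an adjusted p of 6.39e-10 (quasi-likelihood test of edgeR, Benjamini-Hochberg adjustment over the 8987 rows tested). In bulk RNA, fewer cells with a transcript and less of it per cell cannot be told apart. The spread between UN-SCC679 libraries was 6.28% of the mean, less than the 16.4% that counting error alone gives, and in UN-SCC680 it was 53.4% against 38.7%. Without UN-SCC680 replicate 3, the library with 3 counts, the log2 fold change was -2.22.

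Only Mmp10 and Reck passed the filter on low counts (edgeR's filterByExpr), so 2 of the 10 genes were tested. Mmp10 was lower and Reck higher in UN-SCC680. Mmp10 passed the filter only through its UN-SCC679 libraries, since it had 10, 7 and 3 counts in UN-SCC680. Such a selection favours a call lower in UN-SCC680. With no filter its log2 fold change was -2.54. Of all 8987 rows, 15.2% were called lower in UN-SCC680 and 15.3% higher, and among the 358 tested rows at agreeing positions the shares were 20.4% and 35.5%. A call in either direction was therefore common in this comparison. The share of all rows without overlap between the lines was not counted, so lack of overlap does not set these genes apart. The median log2 fold change was -0.003 over all rows tested and 0.176 over those at agreeing positions, and the 5th and 95th percentiles were -1.42 and 1.16 over all rows and -3.36 and 1.46 at agreeing positions. Reck lay above both upper percentiles. Mmp10 lay below the lower percentile of all rows but within the range of the rows at agreeing positions.

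**Figure D3:**
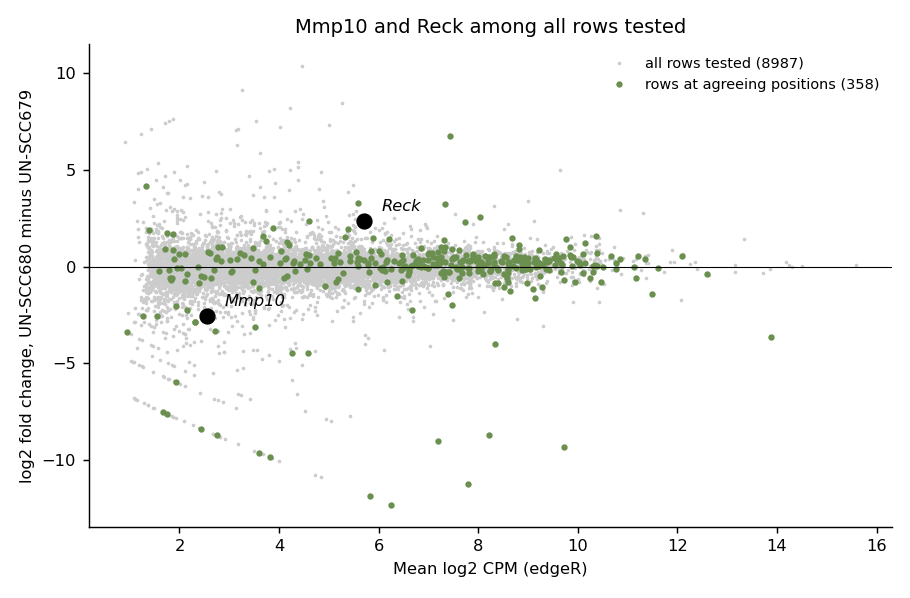
The log2 fold change between the lines (vertical axis, UN-SCC680 minus UN-SCC679) against mean log2 CPM (horizontal axis) for the 8987 rows tested (grey), the 358 at agreeing positions (green) and the 2 tested genes (black). Mmp10 lies at -2.58 among rows of low abundance and Reck at 2.34.

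Mmp3 (stromelysin-1, ENSMUSG00000043613.9, chromosome 9, 7445822 to 7455975) is the other stromelysin of the cluster. Its libraries had 5, 0 and 0 counts in UN-SCC679 and 2, 3 and 6 in UN-SCC680, so the groups overlapped, and in UN-SCC680 replicate 3 it had more counts than Mmp10. The counts of these paralogs can mix, because 140 of the 1671 words of 50 bases in the Mmp10 transcript (8.38%) also occur in Mmp3, by GENCODE M1 transcripts, and 50 bases is the length of a read. How reads that match both were counted is not stated. The paper states paired-end runs, so the share of words can differ from the share of read pairs that match both genes. Mmp27 and Reck shared 0 such words with any other protein-coding transcript.

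Mmp27 (ENSMUSG00000070323.12, chromosome 9, 7571397 to 7581886) had counts in UN-SCC679 libraries only. Its libraries had 6, 8 and 5 counts in UN-SCC679 and 0, 0 and 0 in UN-SCC680. The groups did not overlap, and how often this holds over all rows was not counted. Its mean in UN-SCC679, 1.62 ± 0.216 CPM by library size (SD, n = 3), was 2.33-fold the floor of 3 counts per library in UN-SCC680 (0.696 CPM). This bound leaves out the counting error of the UN-SCC679 mean. The 19 counts in UN-SCC679 give a 95% Poisson interval of 0.983 to 2.55 CPM. Mmp27 failed the filter. With no filter (22176 rows, of which 6.52% were called lower in UN-SCC680), edgeR gave an adjusted p of 9.1e-06, limma-voom 4.16e-07 and DESeq2 0.00398, so the call at 5e-05 depended on the tool.

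Mmp13 (collagenase-3), at the start of the cluster, had 8, 2 and 5 counts in UN-SCC679 and 2, 1 and 1 in UN-SCC680. The groups touched at 2 counts. Without the filter its log2 fold change was -1.91 (standard error 0.75) with an adjusted p of 0.0447 from edgeR, short of the threshold, and 0.312 from DESeq2. Mmp12 had 1, 1 and 1 counts in UN-SCC679 and 0, 2 and 0 in UN-SCC680. The row of Mmp12 runs to 7369499, over the end of Mmp1b on the other strand, and counting by strand is not stated. Mmp20 had 1 count, in UN-SCC679 replicate 2.

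Summed over the 8 cluster genes, the libraries had 53, 54 and 47 counts in UN-SCC679 and 14, 13 and 10 in UN-SCC680. Mmp10 gave 72.1% of the 154 counts in UN-SCC679 (95% Wilson interval 64.5% to 78.6%) and 54.1% of the 37 in UN-SCC680 (38.4% to 69.0%). The intervals overlap and cover counting error only.

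Reck (ENSMUSG00000028476.14, chromosome 4, 43875530 to 43944806) went the other way. It had 56, 92 and 46 counts in the UN-SCC679 libraries and 347, 371 and 357 in the UN-SCC680 libraries. The lowest UN-SCC680 library had more than 3 times the counts of the highest UN-SCC679 library. Normalized CPM averaged 16.2 ± 4.14 and 83.9 ± 1.64 (SD, n = 3), a log2 fold change of 2.34 (standard error 0.11), or 5.08-fold higher in UN-SCC680, with an adjusted p of 5.62e-23 from edgeR. UN-SCC679 replicate 2, at 20.8 CPM, stood above the 15.0 and 12.8 CPM of replicates 1 and 3. The spread in UN-SCC679 was 25.6% of the mean, more than the 12.4% of counting error, and in UN-SCC680 it was 1.95% against 5.28%. Without UN-SCC679 replicate 2 the log2 fold change was 2.59.

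Levels of different genes were compared per length, as normalized CPM over the gene length of the table in kilobases (RPKM). In UN-SCC679, Mmp10 came first at 5.49 ± 0.345 RPKM (SD, n = 3), followed by Reck at 3.39 ± 0.866, Mmp27 at 0.725 ± 0.0946 and Mmp13 at 0.497 ± 0.316. The libraries of Mmp10 (5.13 to 5.81 RPKM) and Reck (2.68 to 4.35 RPKM) did not overlap, while Mmp27 and Mmp13 lay within their spread. In UN-SCC680, Reck came first at 17.6 ± 0.343 RPKM, and Mmp10 (0.907 ± 0.484), Mmp3 (0.477 ± 0.272) and Mmp13 (0.117 ± 0.0521) followed. Mmp10 and Mmp3 lay within their spread there. Per length, Mmp10 thus stood above Reck in UN-SCC679 and below it in UN-SCC680. This order rests on the gene lengths of the table, since by CPM, without length, Reck (16.2) stood above Mmp10 (9.45) in UN-SCC679 as well. The level of Reck over that of Mmp10, both in RPKM, was 0.612, 0.789 and 0.461 in the UN-SCC679 libraries and 12.5, 19.1 and 42.9 in the UN-SCC680 libraries. In UN-SCC680, where Mmp10 was not detected by the limit above, these ratios rest on 10, 7 and 3 Mmp10 counts, the last at the floor.

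The Mmp cluster lay between genes that were read at much higher levels. Within 500 kb of the cluster, 22 other rows at agreeing positions were counted, of which 5 had no count and 9 were tested. All 9 were called, 6 of them lower in UN-SCC680 and 3 higher, with a median log2 fold change of -0.79. Over the 358 tested rows at agreeing positions, 20.4% were called lower and 35.5% higher. Dcun1d5, which lies before Mmp13, had 209 RPKM in UN-SCC679 and 117 in UN-SCC680, and Tmem123, which follows Mmp7, had 400 and 232. Mmp1a and Mmp1b, the other MMP genes within the cluster, had 1 and 2 counts over the 6 libraries. Mmp10 had the lowest log2 fold change among the tested rows of the region, at -2.58 with a 95% interval of -3.17 to -1.98. The interval of 9230110C19Rik, -2.11 to -1.89, overlapped it, while Birc3, an inhibitor of apoptosis, was at -1.52 and Birc2 and Yap1 at -0.82 and -0.79. The 3 rows called higher were AK129341 at 0.79, Dync2h1 at 0.32 and Gm10709 at 0.3. Copy number data were not analysed here.

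**Figure D4:**
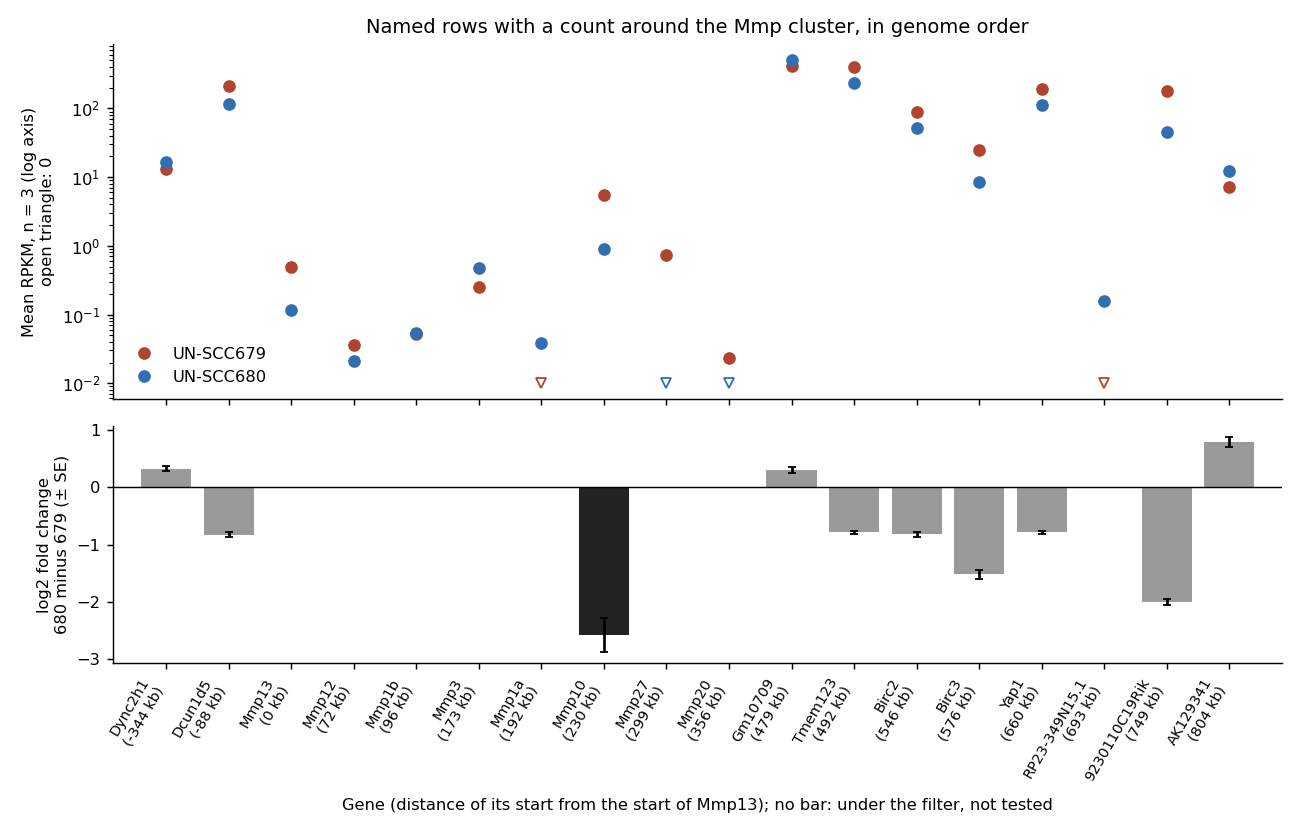
Named rows with a count around the Mmp cluster in genome order (horizontal axis, with the distance of each start from that of Mmp13 in kb). The upper panel gives mean RPKM (log axis, n = 3 per line, open triangles at 0), and the lower panel the log2 fold change with its standard error. The MMP genes sit below 6 RPKM, between flanking genes such as Dcun1d5 and Tmem123 at 117 RPKM or more, and Mmp10 (black bar) has the lowest bar.

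The next gene after Reck was also higher in UN-SCC680. Within 200 kb, 21 other rows were counted and 6 tested, of which 3 were called higher in UN-SCC680, 0 lower and 3 not called. The shares over the 358 tested rows at agreeing positions were 35.5% higher and 20.4% lower. Glipr2, a membrane protein of the Golgi, starts 12.6 kb after the end of Reck on the same strand and had 1.33 RPKM in UN-SCC679 and 143 in UN-SCC680 (log2 fold change 6.75). Clta, a clathrin light chain, starts 59.6 kb after Reck and had a log2 fold change of 0.46. Before Reck, 5430416O09Rik had 0.659 RPKM in UN-SCC680 against 1.19 in UN-SCC679, which did not pass the threshold (adjusted p = 0.0101 from edgeR), and the other rows were under the filter. Around Mmp16, the 3 other rows within 200 kb were under the filter as well.

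**Figure D5:**
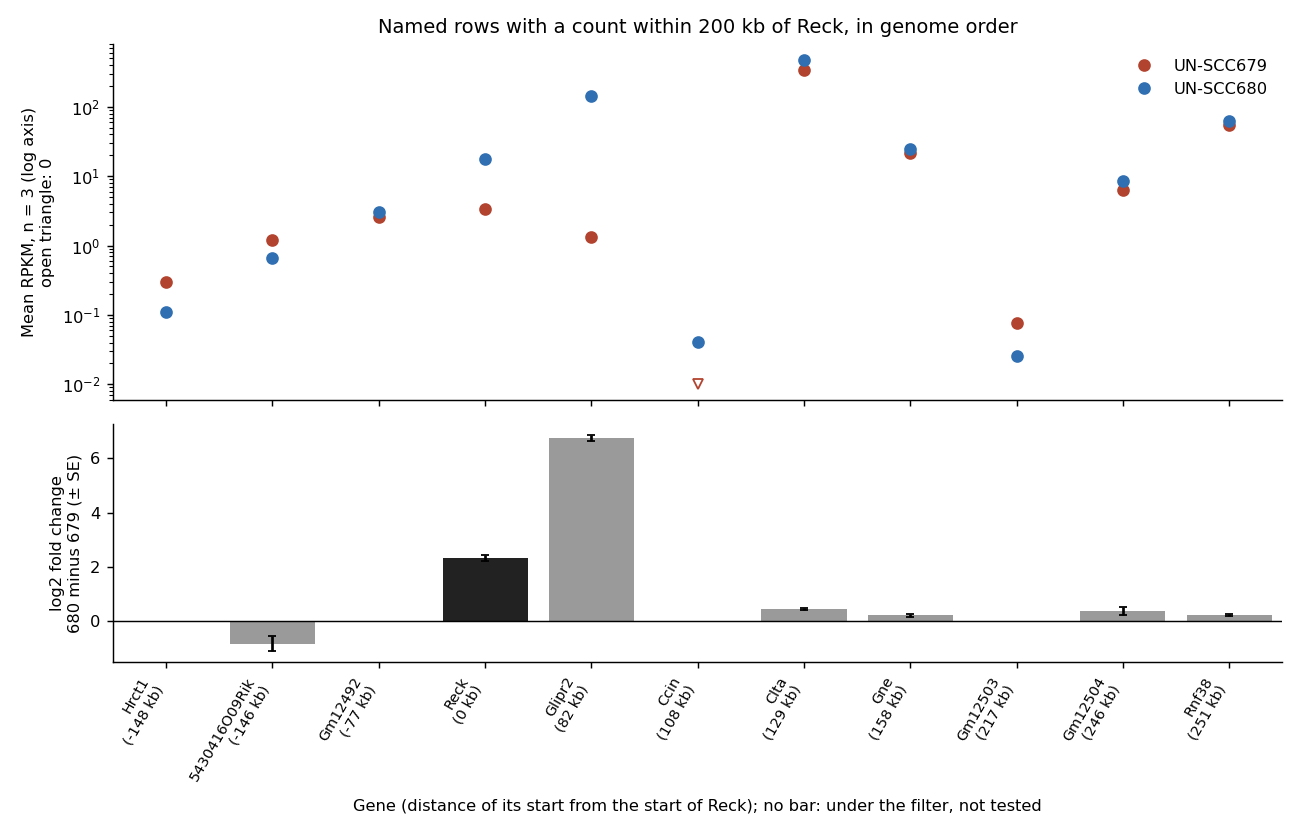
Named rows with a count within 200 kb of Reck in genome order (horizontal axis, with the distance of each start from that of Reck in kb). The upper panel gives mean RPKM (log axis, n = 3 per line, open triangle at 0), and the lower panel the log2 fold change with its standard error. Reck (black bar, 2.34) and Glipr2 (6.75) stand above the others, of which the highest is Clta at 0.46.

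Of 104 further genes listed for the MMP pathway (the rest of the family, inhibitors and activators, other metalloproteinases, matrix substrates, transcription factors and signals, and Reck partners), 13 lie at agreeing positions, and 4 of these were tested. Those 4 were Col1a2, Yap1, Klf4 and Zeb1, of which 2 were called lower in UN-SCC680, 1 higher and 1 not called, with a median log2 fold change of -0.35. Of all 358 tested rows at agreeing positions, 20.4% were called lower and 35.5% higher. Col1a2, a chain of type I collagen and a substrate of collagenases, fell from 27900 ± 1220 CPM in UN-SCC679 libraries to 2260 ± 94 CPM for UN-SCC680 (SD, n = 3), with a log2 fold change of -3.63. Klf4, an epithelial transcription factor, had a log2 fold change of 3.26. Tfpi2, a serine protease inhibitor that protects matrix, had 1 count in all. The tissue inhibitors (Timp1 to Timp4), Mmp2, Mmp9 and Mmp14, and the Fos and Jun genes lie at moved positions and were not read.

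Col1a2 was also the only fibroblast marker of 6 at an agreeing position. Like Mmp10 it was called lower in UN-SCC680, as were 20.4% of the 358 tested rows at agreeing positions. Of 5 macrophage markers, 0 lie at one. The part of other cell types in the difference of Mmp10 was not tested.

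Patterns over the 6 libraries were compared by the mean squared difference of log2 CPM (prior count 2) centred on the mean of each row, over 357 other tested rows at agreeing positions. The rows most like Mmp10 were Gm12404 (0.109), Rragd, a small GTPase of amino acid sensing (0.16), and 9230110C19Rik (0.178), the first 2 with log2 fold changes of -2.87 and -3.15. Those most like Reck were Abca1, a cholesterol transporter (0.0242), Trp53inp1, a p53 target (0.0315), and Ptpn3, a tyrosine phosphatase (0.0493), with log2 fold changes of 2.38, 2.55 and 2.32. With 2 lines, likeness here is mostly a like difference between them.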

How the data were processed

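The file the authors deposited holds an unnormalized, whole-number count for each Ensembl gene and library, beside exon coordinates and a length. The paper names Trimmomatic, mm10, Kallisto and DESeq2, and the submitters' processing notes name featureCounts, whose layout the table has. Columns were matched to libraries by line and replicate number, and 0 columns were left unused. Symbols came from the gene name table, and positions were compared with RefSeq genes of GRCm38.p6.

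The lines were compared by the quasi-likelihood F-test of edgeR (filterByExpr, TMM, line as the sole term) over 8987 rows, with Benjamini-Hochberg adjustment and a threshold of 5e-05. The study set this limit with DESeq2 for each line against normal lung cells, not between the lines. Its plot also required a log2 fold change over 2, which the main comparison here did not. The standard error was derived from the F statistic. The common biological coefficient of variation was 3.12%. The test was checked on simulated data. Libraries of a line differed by more than sampling noise (chi-square per degree of freedom 1.11 to 1.62) and each counted as 1 sample. Deviations of same-numbered libraries correlated at -0.038, -0.00052 and -0.022, which gives no pairing by number.

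The genes and lists were chosen with earlier results of these data known. All 10 genes are named. Listed genes have values only at agreeing positions, which are the windows on chromosomes 4 and 9 and rows elsewhere that match GRCm38 to 10 bases at either end. Values of 1 listed gene are not reported here. Neighbors and the 3 most like rows followed fixed rules, and from the neighbors examples were named after their values were seen. Alternatives were DESeq2, limma-voom, other scalings, filters and thresholds, row subsets, a replicate block and leaving out each library. Software was DESeq2 1.42.0, edgeR 4.0.16 and limma 3.58.1 in R 4.3.3, with pandas 2.3.3, NumPy 2.4.6, SciPy 1.17.1 and matplotlib 3.10.9 in Python 3.11.15.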

Additional observations from a re-analysis of the deposited data

How the results depend on the processing

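For Mmp10 and Reck, all 32 values from other fits had the main direction and passed the threshold, with log2 fold changes of -2.98 to -2.22 for Mmp10 and 2.16 to 2.59 for Reck. With each library left out in turn, the values were -2.98 to -2.22 and 2.21 to 2.59, and 2 genes were called each time. Normalization within the agreeing positions alone, where rows have a median log2 fold change of 0.176, gave -2.75 and 2.16. With the replicate block they were -2.57 and 2.35, and 2523 rows were called, so the block changed no call of these genes. Without the filter 7 of the 10 genes could be tested and 3 were called, as were 3070 of all 22176 rows. Mmp27 was the third, a call that DESeq2 without the filter did not make (log2 fold change -5.20, adjusted p = 0.00398).

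Against 2736 rows called, an adjusted p limit of 0.05 gave 5248, a required log2 change beyond 1 in size gave 1024 and beyond 2 gave 435. At agreeing positions alone, where fewer rows were tested, 186 of 358 were called. Leaving out each library gave 2226 to 2611. With at least 1 count in every library as the limit, 5 genes were detected in UN-SCC679 and 4 in UN-SCC680, in place of 3 and 1. Leaving out a library gave 3 to 4 and 1 to 2, and without UN-SCC680 replicate 3 the additional gene was Mmp10. By CPM without length, 8 of the 10 genes kept their place in the order of levels in UN-SCC679 and 10 in UN-SCC680. The exceptions were Mmp10 and Reck, so that by CPM Reck came first in both lines. Low counts limit the 8 genes other than Mmp10 and Reck, which had at most 8 counts in any library. The fold changes of genes under the filter, by each tool, were added after seeing the data.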
